A study of Mus musculus with 14 samples.

Results

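The genes described here are 10 markers of mural cells, the cells that wrap blood vessels, measured in RNA of isolated mouse fat cells. They were taken by symbol from a list of known mural genes, drawn up with earlier results of these data known, and all 10 were found among the 38553 genes of each library. The list holds 5 genes used as pericyte markers (Rgs5, Ndufa4l2, Cox4i2, Kcnj8 and Abcc9), 3 shared by pericytes and smooth muscle (Pdgfrb, Cspg4 and Notch3) and 2 used as smooth muscle markers (Acta2 and Myh11). All 10 also passed the filter on low values in white adipocytes (at least 0.5 FPKM in at least 3 of 12 white libraries), as did 14959 genes in all.

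The libraries are poly(A) RNA of adipocytes from male C57BL/6 mice, with no genetic change given in the labels, that were weaned at 3 weeks and then kept on a diet for 16 weeks. Groups are named by depot and diet: epididymal (a visceral white pad) on high-fat diet D12492 (HFD) or regular chow (ND), inguinal (a subcutaneous white pad) on HFD or ND, each with 3 libraries, and interscapular brown fat on HFD or ND, each with 1 library. Pads were digested with collagenase for 20 min (white) or 40 min (brown), the floating cells were collected, and each library pooled the tissue of 3 to 5 mice. Values are FPKM, which divides a gene's fragments by its length and by the library's mapped fragments, and the read depth behind them is unknown.

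Mural cells sit on the outside of the endothelial tube. Pericytes cover capillaries and are kept there by PDGF-B from the endothelium acting on the receptor PDGFRB, while smooth muscle cells ring arterioles and venules and contract through smooth muscle actin and myosin. Notch3, turned on by ligands on endothelial cells, keeps mural cells in their mature state. A floating fat cell layer is meant to leave vessels behind, and whether its mural RNA came from vessel cells carried along or from adipocytes was not tested. In bulk RNA, fewer cells of a type and less RNA per cell cannot be told apart.

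The libraries carried the genes of their labelled cells: the adiponectin gene Adipoq stood between 919 and 2536 FPKM in every library, and the brown fat gene Ucp1 at 503 FPKM in the brown HFD library and 121 FPKM in the brown ND one, against at most 36.1 FPKM in any white library. They also carried other cells. Of the 3 inguinal ND libraries, replicates 0 and 2 were taken as rich in lymphocyte markers from earlier results of these data. The summed level of 11 such genes ran from 66.8 to 861 FPKM over all 3, against at most 16.8 FPKM in any library of another group. Inguinal ND replicate 1 thus also lay above every other group, and leaving out replicates 0 and 2 does not remove these markers. Epididymal ND replicate 2 held 38.3 FPKM of Crisp1, a sperm-coat gene of the epididymis that was at most 1.37 FPKM elsewhere. Diet differences in the white pads are given with and without these libraries. The design calls the white libraries biological triplicates of pooled tissue, and p-values measure the spread between these pools.

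Rgs5 (ENSMUSG00000026678, chromosome 1, 169655501 to 169695813 in RefSeq on GRCm38.p6, as for all positions below) encodes a protein that shortens G protein signalling and is among the most used pericyte markers. Its level was 10.1, 14.3 and 12.3 FPKM in the epididymal HFD libraries (replicates 0, 1 and 2), against 93.0, 90.0 and 81.6 FPKM in the epididymal ND ones. In inguinal adipocytes it was 62.5, 71.1 and 70.2 FPKM on HFD, against 40.1, 39.3 and 18.4 FPKM on ND. The single brown libraries had 91.1 FPKM on HFD and 21.9 FPKM on ND. On HFD, then, Rgs5 was low in every epididymal library and high in every inguinal one and in the brown one, and no 2 white groups overlapped. By mean, the white groups ran from epididymal ND (88.2 ± 5.90 FPKM) through inguinal HFD (67.9 ± 4.74) and inguinal ND (32.6 ± 12.3) to epididymal HFD (12.2 ± 2.14; SD, n = 3 each). The HFD minus ND difference was −2.81 on the log2(FPKM + 0.5) scale in epididymal adipocytes (SE 0.26) and 1.13 in inguinal ones (SE 0.26), and both passed by limma (adjusted p = 3.1e-05 and 0.012, Benjamini-Hochberg over all genes tested). The inguinal difference was 0.78 without inguinal ND replicates 0 and 2, which leaves 1 ND library, and the call was lost. Of the related genes, Rgs4 averaged 1.26 FPKM in epididymal HFD and 9.57 FPKM in epididymal ND libraries. Rgs2 went the other way, with 58.6 and 10.2 FPKM.

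**Figure D1:**
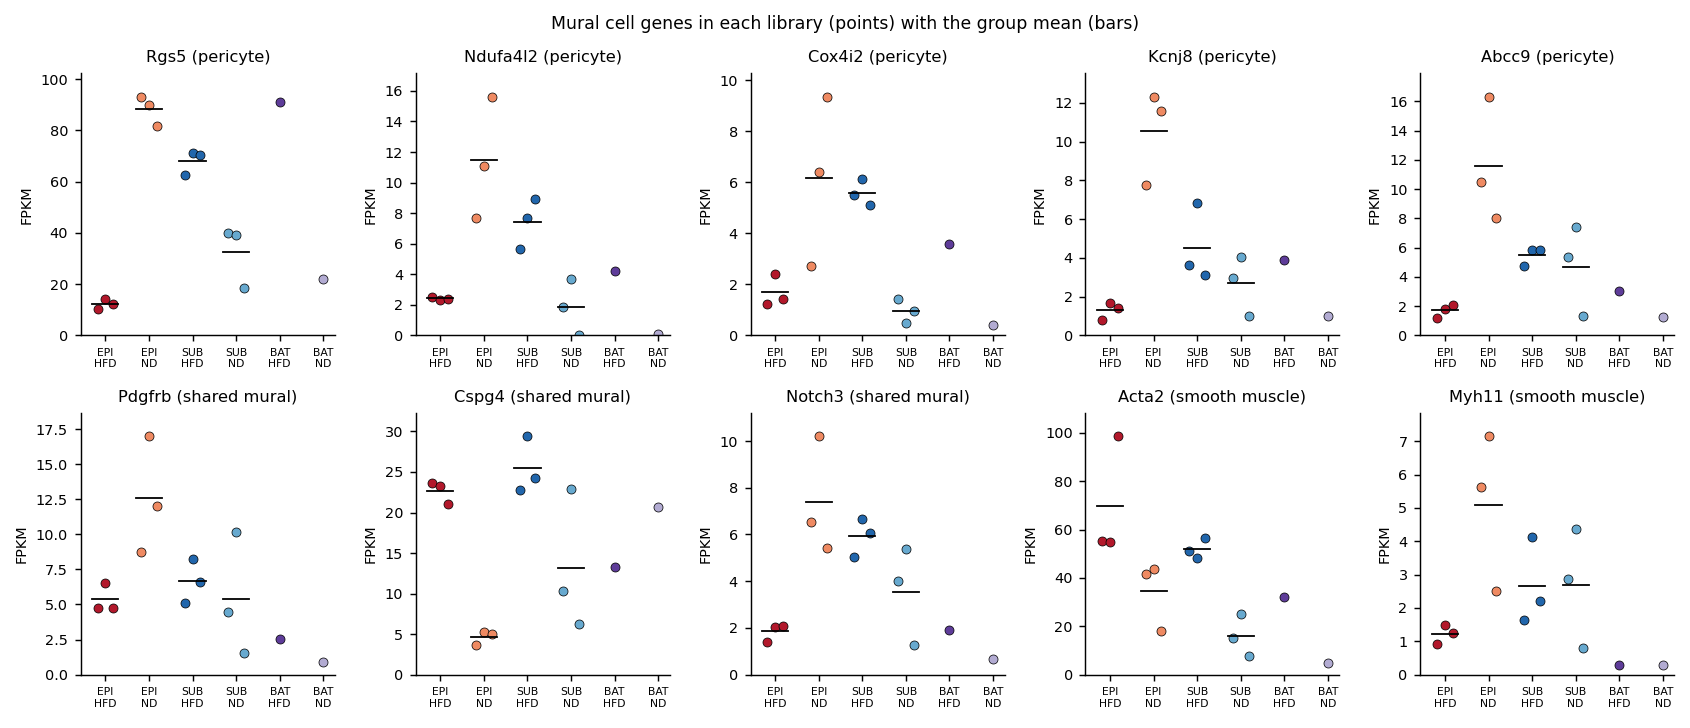
FPKM (y axis, linear, from 0, own scale per gene) of the 10 mural genes in each library (points), grouped by depot and diet along the x axis, with the group mean as a bar; EPI is epididymal, SUB inguinal and BAT brown. By mean, Rgs5, Kcnj8, Abcc9 and Notch3 are lowest among white groups in EPI HFD, Acta2 is highest there, and Cspg4 is lowest in EPI ND (4.66 FPKM).

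Ndufa4l2 and Cox4i2 encode mitochondrial proteins that replace a common subunit in particular cells. The gene Ndufa4l2 (ENSMUSG00000040280, chromosome 10, 127509274 to 127517154) makes a hypoxia-inducible relative of the respiratory chain subunit NDUFA4. Cox4i2 (ENSMUSG00000009876, chromosome 2, 152753916 to 152765039) makes the second isoform of cytochrome oxidase subunit 4. Ndufa4l2 was 2.53, 2.32 and 2.38 FPKM in epididymal HFD libraries, against 7.65, 11.1 and 15.6 FPKM in epididymal ND ones. In inguinal libraries it was 5.67, 7.66 and 8.93 FPKM on HFD, against 1.87 and 3.68 FPKM and a listed 0 on ND. Groups did not overlap in either depot, and HFD libraries were the low ones in the epididymal and the high ones in the inguinal pad. The log2 differences were −1.98 (SE 0.59, limma adjusted p = 0.034) and 2.19 (SE 0.59, adjusted p = 0.023). The library listed at 0 enters through the pseudocount, and the inguinal difference was 0.90 without inguinal ND replicates 0 and 2 (adjusted p = 0.187). The brown libraries had 4.22 FPKM on HFD and 0.104 FPKM on ND.

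Cox4i2 was 1.22, 2.41 and 1.44 FPKM in epididymal HFD libraries, against 2.70, 6.41 and 9.35 FPKM in epididymal ND ones. In the inguinal pad its values were 5.51, 6.15 and 5.13 FPKM on HFD, against 1.44, 0.478 and 0.961 FPKM on ND. It followed the same order as Rgs5 between diets in both depots, again with no overlap. The log2 differences were −1.5 (SE 0.39, limma adjusted p = 0.019) and 2.12 (SE 0.39, adjusted p = 0.0041). The epididymal call was lost without epididymal HFD replicate 0 or 2 or ND replicate 1 (limma adjusted p = 0.081, 0.065 and 0.064) or ND replicate 2, the library with Crisp1 (log2 −1.14, adjusted p = 0.076). That of Ndufa4l2 was lost without any 1 HFD replicate (0.086, 0.092 and 0.086) or ND replicate 1 or 2 (0.080 and 0.111). The inguinal call held without inguinal ND replicates 0 and 2 (log2 2.64, adjusted p = 0.018). Brown Cox4i2 was 3.58 FPKM on HFD and 0.420 FPKM on ND.

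The common counterparts of these genes were far higher and passed in neither depot. Ndufa4 averaged 345 ± 60.6 FPKM in epididymal HFD and 401 ± 67.3 FPKM in epididymal ND libraries (log2 −0.22, limma adjusted p = 0.623), and 450 ± 33.9 against 325 ± 119 FPKM in inguinal HFD and ND libraries (0.52, adjusted p = 0.169; SD, n = 3 each). Cox4i1 had log2 differences of 0.08 and 0.29 (adjusted p = 0.873 and 0.438).

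Kcnj8 and Abcc9 encode the 2 parts of the vascular KATP channel, a potassium channel that opens when ATP is low: KIR6.1 forms the pore and SUR2 regulates it. Kcnj8 (ENSMUSG00000030247, chromosome 6, 142564837 to 142571614) and Abcc9 (ENSMUSG00000030249, chromosome 6, 142587862 to 142702766) are neighbours with 16.2 kb between them. Kcnj8 was 0.785, 1.66 and 1.42 FPKM in epididymal HFD libraries, against 7.78, 12.3 and 11.6 FPKM in epididymal ND ones. Abcc9 was 1.2, 1.82 and 2.07 FPKM in epididymal HFD libraries, against 10.5, 16.3 and 8.04 FPKM in epididymal ND ones. Both channel genes were thus lower in every epididymal HFD library than in any ND one. The log2 differences were −2.64 for Kcnj8 (SE 0.41, limma adjusted p = 0.0009) and −2.43 for Abcc9 (SE 0.46, adjusted p = 0.0029).

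In inguinal libraries the channel genes overlapped between diets. Kcnj8 was 3.62, 6.84 and 3.09 FPKM on HFD, against 2.98, 4.06 and 0.986 FPKM on ND (log2 0.73, limma adjusted p = 0.235). Abcc9 was 4.77, 5.84 and 5.84 FPKM on HFD, against 5.34, 7.42 and 1.31 FPKM on ND (0.45, adjusted p = 0.523). Inguinal ND replicate 2 was the lowest library of its group for both, as it was for Rgs5, Ndufa4l2, Pdgfrb, Cspg4, Notch3, Acta2 and Myh11. The channel of beta cells and neurons uses the related genes Kcnj11 and Abcc8. Kcnj11 was listed at 0 in every white library, and Abcc8 was at most 0.177 FPKM in any.

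The 3 shared mural genes did not move together. Pdgfrb (ENSMUSG00000024620, chromosome 18, 61045127 to 61085067), for the PDGF-B receptor, was 4.78, 6.56 and 4.78 FPKM in epididymal HFD libraries, against 8.78, 17.0 and 12 FPKM in epididymal ND ones, with no overlap. Its log2 difference of −1.12 did not pass (SE 0.47, limma adjusted p = 0.124), but did without inguinal ND replicate 1 or 2, which share in the estimate of spread (adjusted p = 0.032 and 0.026). In the inguinal pad Pdgfrb was 5.09, 8.23 and 6.63 FPKM on HFD, against 4.44, 10.2 and 1.54 FPKM on ND (0.56, adjusted p = 0.434). The Notch receptor gene Notch3 (ENSMUSG00000038146, chromosome 17, 32120820 to 32166896) was lower in epididymal HFD libraries, with 1.38, 2.05 and 2.1 FPKM, against 6.54, 10.2 and 5.44 FPKM in ND ones (−1.72, SE 0.39, adjusted p = 0.0088). Its inguinal values overlapped, with 5.04, 6.64 and 6.06 FPKM on HFD and 4.0, 5.38 and 1.26 FPKM on ND (0.83, adjusted p = 0.159). Without inguinal ND replicate 1, inguinal Notch3 (1.18) and Pdgfrb (1.15) passed as higher on HFD (limma adjusted p = 0.035 and 0.039).

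Cspg4 (ENSMUSG00000032911, chromosome 9, 56865104 to 56899870), which encodes the NG2 proteoglycan on the surface of pericytes and of some other cells, went the other way. It was 23.7, 23.3 and 21.1 FPKM in epididymal HFD libraries, against 3.70, 5.30 and 4.99 FPKM in epididymal ND ones (log2 2.18, SE 0.35, limma adjusted p = 0.001). In inguinal libraries it was 22.8, 29.4 and 24.2 FPKM on HFD, against 10.3, 22.9 and 6.23 FPKM on ND (1.11, SE 0.35, adjusted p = 0.043). The 3 epididymal ND libraries held the lowest values of all 14. The inguinal groups overlapped at 1 library of each. The inguinal call was lost without any 1 of 10 of the 12 white libraries, with adjusted p of 0.055 to 0.134, and without inguinal ND replicates 0 and 2 the difference was 0.14 (adjusted p = 0.796). In brown fat Cspg4 was 13.3 FPKM on HFD and 20.7 FPKM on ND. Within a library, Cspg4 over Pdgfrb was 4.95, 3.55 and 4.41 in epididymal HFD libraries and 0.422, 0.313 and 0.414 in epididymal ND ones, a description with no test. The inguinal ratios were 4.48, 3.57 and 3.65 on HFD and 2.32, 2.23 and 4.04 on ND.

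The 2 smooth muscle genes differed from each other. Acta2 (ENSMUSG00000035783, chromosome 19, 34240336 to 34255585), the smooth muscle alpha-actin gene, was 55.4, 54.7 and 98.6 FPKM in epididymal HFD libraries, against 41.6, 43.7 and 18.1 FPKM in epididymal ND ones. The groups did not overlap, but the spread within each was wide, and the log2 difference of 1.05 did not pass (SE 0.41, limma adjusted p = 0.101). It was 0.64 without epididymal ND replicate 2, the library with Crisp1 (adjusted p = 0.329), and passed without inguinal ND replicate 2, which shares in the estimate of spread (adjusted p = 0.048). Inguinal Acta2 was 51.1, 48.3 and 56.7 FPKM on HFD, against 15.2, 25.1 and 7.83 FPKM on ND, and rose (1.81, SE 0.41, adjusted p = 0.011). That call was lost without inguinal ND replicates 0 and 2 (1.03, adjusted p = 0.246). By mean, epididymal HFD (69.6 ± 25.2 FPKM) and inguinal HFD (52.0 ± 4.29) overlapped, as did epididymal ND (34.5 ± 14.2) and inguinal ND (16.0 ± 8.67; SD, n = 3 each), while no HFD library lay below an ND one in white fat. The brown libraries had 32.2 FPKM on HFD and 4.98 FPKM on ND. Actin genes are alike in coding sequence, and how the authors treated shared reads was not given. The cytoplasmic actin gene Actg1 was also higher in epididymal HFD libraries (305 against 134 FPKM, 1.19, adjusted p = 0.0085) and passed in neither direction in inguinal ones (−0.28, adjusted p = 0.502). The more abundant Actb averaged 1797 FPKM in epididymal HFD and 854 FPKM in epididymal ND libraries. In inguinal libraries it averaged 991 FPKM on HFD and 1270 FPKM on ND.

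Myh11 (ENSMUSG00000018830, chromosome 16, 14194527 to 14292188) encodes the smooth muscle myosin heavy chain, the motor that pulls on that actin. It was 0.930, 1.49 and 1.25 FPKM in epididymal HFD libraries, against 5.62, 7.15 and 2.52 FPKM in epididymal ND ones, and fell (log2 −1.61, SE 0.49, limma adjusted p = 0.037). That call was lost without any 1 epididymal HFD replicate, epididymal ND replicate 0 or 1, or inguinal HFD replicate 2 (adjusted p of 0.051 to 0.130), at log2 differences of −1.72 to −1.33. In inguinal libraries it was 1.65, 4.14 and 2.21 FPKM on HFD, against 2.88, 4.38 and 0.799 FPKM on ND (0.11, adjusted p = 0.895). Every epididymal HFD library was thus below every ND one for Myh11 and above every ND one for Acta2. The ratio of Acta2 to Myh11 was 59.5, 36.7 and 78.9 in epididymal HFD libraries, against 7.40, 6.11 and 7.19 in epididymal ND ones. In inguinal libraries it was 30.9, 11.7 and 25.6 on HFD, against 5.26, 5.74 and 9.80 on ND. Both ratios were higher on HFD without overlap, as a description. In brown fat Myh11 was 0.295 FPKM on HFD and 0.288 FPKM on ND.

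Counted over the list, 7 of the 10 mural genes were lower in epididymal HFD than epididymal ND libraries, 1 (Cspg4) was higher and 2 (Pdgfrb and Acta2) passed in neither direction. Among all genes tested, 7.35% were lower and 12.2% higher in this comparison, 19.5% in either direction. The groups did not overlap for all 10 genes, against 42.4% of all genes. In inguinal libraries 5 of the 10 were higher on HFD (Rgs5, Ndufa4l2, Cox4i2, Cspg4 and Acta2), 0 lower and 5 neither, where 9.30% of all genes were higher and 10.2% lower (19.5% in either direction); the groups did not overlap for 4, against 33.1% of all genes. The median log2 difference of the 10 genes was −1.67 in epididymal and 0.97 in inguinal adipocytes, against 0.07 and −0.01 for all genes tested. Without inguinal ND replicates 0 and 2, 1 of the 10 was called in the inguinal comparison, Cox4i2, and that comparison rests on 1 ND library, assumed to vary like the other groups. There Kcnj8 was 0.07, Notch3 0.12, Abcc9 −0.41, Pdgfrb −0.61 and Myh11 −0.70 on the log2 scale, with adjusted p of 0.389 to 0.965. The epididymal count was 5 without epididymal HFD replicate 0 or 2 or ND replicate 1, and 6 without the ND replicate 2 that held Crisp1. In that last fit Rgs5 (−2.87), Kcnj8 (−2.56), Abcc9 (−2.65), Notch3 (−1.91), Myh11 (−2.0) and Cspg4 (2.23) passed, with limma adjusted p of 0.0002 to 0.022, and Pdgfrb (−1.13, adjusted p = 0.210) did not. The inguinal count was 3 without HFD replicate 1 or 2.

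**Figure D2:**
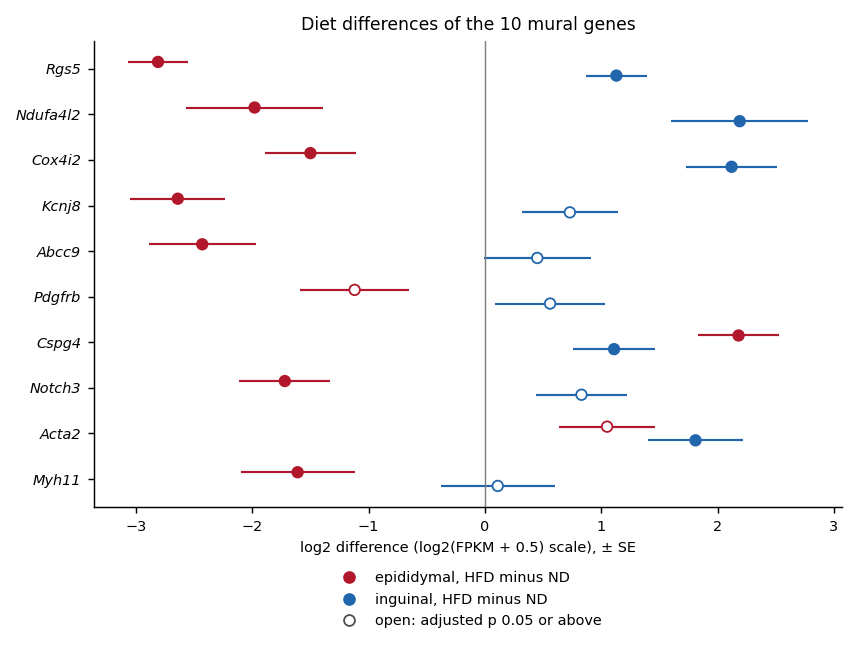
HFD minus ND difference on the log2(FPKM + 0.5) scale (x axis) of each mural gene (rows) in epididymal and inguinal adipocytes, as points with ± 1 SE from limma; filled points had an adjusted p under 0.05 and open ones did not. Rgs5, Ndufa4l2 and Cox4i2 are filled on opposite sides of 0, at −2.81, −1.98 and −1.5 in epididymal and 1.13, 2.19 and 2.12 in inguinal adipocytes.

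Whether the diet difference was the same in the 2 white depots was tested by the interaction, the epididymal minus the inguinal diet difference. It passed for 6 of the 10 genes, all negative: Rgs5 at −3.94 (SE 0.37, limma adjusted p = 0.00099), Ndufa4l2 at −4.18 (SE 0.83, adjusted p = 0.013), Cox4i2 at −3.61 (SE 0.56, adjusted p = 0.0052), Kcnj8 at −3.37 (SE 0.59, adjusted p = 0.0081), Abcc9 at −2.88 (SE 0.64, adjusted p = 0.022) and Notch3 at −2.55 (SE 0.55, adjusted p = 0.019). These are all 5 pericyte genes and the mural Notch receptor. Pdgfrb (−1.68), Myh11 (−1.72), Acta2 (−0.76) and Cspg4 (1.07) did not pass (adjusted p = 0.157, 0.161, 0.503 and 0.230). Of all genes, 2.42% were negative, 4.80% positive and 7.22% either in this test. With quantile normalization, which moved the median of all genes by −0.17, 603 genes were negative and 572 positive in place of 362 and 718, and the same 6 mural genes were called. All 6 also passed without inguinal ND replicates 0 and 2, with values between −4.13 and −1.84, and without epididymal ND replicate 2, with values between −3.99 and −2.73 (adjusted p of 0.0057 to 0.038). The Abcc9 call was lost without epididymal HFD replicate 0 or 1, epididymal ND replicate 0 or 1 or inguinal HFD replicate 1 or 2 (adjusted p of 0.050 to 0.067), and that of Notch3 without epididymal HFD replicate 0 or inguinal HFD replicate 1 or 2 (0.061, 0.050 and 0.051). Cspg4 passed as positive without inguinal ND replicate 2 (1.48, adjusted p = 0.048), and Pdgfrb and Myh11 as negative without inguinal ND replicate 1 (0.011 and 0.047).

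Set against each other within one diet, the depots also differed for the mural genes. On HFD, 4 of the 10 were lower in epididymal than in inguinal libraries, 0 higher and 6 neither, where 3.53% of all genes were lower and 7.08% higher (10.6% in either direction). They were Rgs5 (log2 −2.44, SE 0.26, limma adjusted p = 0.0004), Cox4i2 (−1.51, adjusted p = 0.029), Kcnj8 (−1.45, adjusted p = 0.044) and Notch3 (−1.46, adjusted p = 0.033). Abcc9 (−1.46) had a limma adjusted p of 0.063, and of 0.049 with the replicate number as a block. Whether that number pairs libraries is not given in the labels. The groups did not overlap for 7 genes, against 38.4% of all. With any 1 of the epididymal or inguinal HFD libraries left out, the count was 1 or 2, and Rgs5 was called each time.

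On ND, the called genes lay on the other side. Of the 10 genes, 4 were higher in epididymal than in inguinal libraries, 0 lower and 6 neither, where 2.36% of all genes were higher and 4.15% lower (6.51% in either direction; 687 higher and 621 lower with quantile normalization, in place of 353 and 621). They were Rgs5 (log2 1.5, SE 0.26, limma adjusted p = 0.0085), Ndufa4l2 (2.75, adjusted p = 0.020), Cox4i2 (2.1, adjusted p = 0.012) and Kcnj8 (1.92, adjusted p = 0.021). All 4 calls were lost when only these 2 groups entered the fit (adjusted p of 0.149 to 0.215). Acta2 (0.36 on HFD and 1.12 on ND) and Cspg4 (−0.16 and −1.22) had the same sign on both diets and passed on neither. The groups did not overlap for 7 genes, against 19.1% of all. Without inguinal ND replicates 0 and 2, Rgs5 (1.15, adjusted p = 0.017) and Cox4i2 (2.62, adjusted p = 0.025) passed as higher and Cspg4 as lower (−2.19, adjusted p = 0.0012). The count of calls was 2 without epididymal ND replicate 1, 1 without epididymal ND replicate 2 and 9 without inguinal ND replicate 1. The diet and depot comparisons share libraries, so they are not independent of each other.

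**Figure D3:**
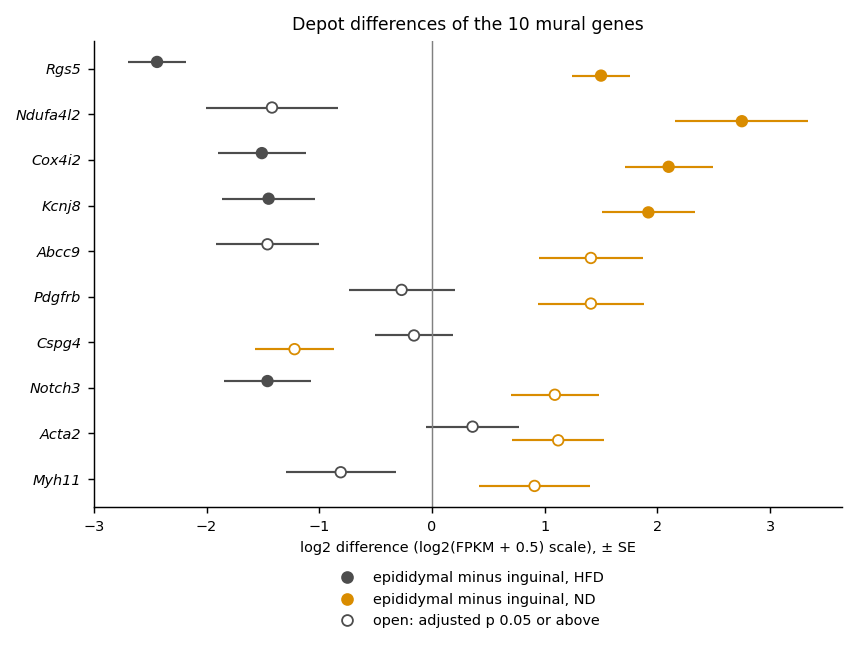
Epididymal minus inguinal difference on the log2(FPKM + 0.5) scale (x axis) of each mural gene (rows) on HFD and on ND, as points with ± 1 SE from limma; filled points had an adjusted p under 0.05. Rgs5, Cox4i2 and Kcnj8 are filled below 0 on HFD (−2.44, −1.51 and −1.45) and above 0 on ND (1.5, 2.1 and 1.92).

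The question of pericyte against smooth muscle genes was put to ratios within a library. Rgs5 over Acta2 was 0.182, 0.262 and 0.125 in epididymal HFD libraries, against 2.24, 2.06 and 4.50 in epididymal ND ones. In inguinal libraries it was 1.22, 1.47 and 1.24 on HFD, against 2.64, 1.56 and 2.34 on ND. The ratio was thus lower on HFD in both white depots without overlap, by a wide gap in epididymal libraries and a narrow one in inguinal libraries. The brown libraries had 2.83 on HFD and 4.40 on ND. With 0.5 FPKM added to both genes before taking logs, the log2 difference was −3.86 in epididymal adipocytes (−3.51 without ND replicate 2) and −0.68 in inguinal ones. Without inguinal ND replicates 0 and 2 it was −0.25, which sets the 3 HFD libraries against the single ND one at 1.56. The two-sided exact permutation p was 0.1 for each, the smallest that 3 against 3 libraries allow, so a p under 0.05 could not be reached (0.133 adjusted over 4 comparisons). Between depots, the epididymal minus inguinal log2 difference was −2.80 on HFD (exact permutation p = 0.1) and 0.38 on ND (exact permutation p = 0.6; the difference was 0.03 without epididymal ND replicate 2 and 0.81 without inguinal ND replicates 0 and 2).

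With more genes the inguinal order was the opposite. An index, the mean log2(FPKM + 0.5) of the 5 pericyte genes minus that of Acta2 and Myh11, was −1.78 ± 0.24 in epididymal HFD and 0.21 ± 0.85 in epididymal ND libraries (SD, n = 3 each). In inguinal libraries it was −0.35 ± 0.07 on HFD and −0.71 ± 0.25 on ND. The HFD minus ND difference of the index was −1.99 in the epididymal pad (−1.51 without epididymal ND replicate 2). It was 0.36 in the inguinal pad (0.63 without inguinal ND replicates 0 and 2), where Rgs5 over Acta2 was lower. The index carries no test. Across the 12 white libraries, log2 levels of the 5 pericyte genes correlated with each other at a Pearson r of 0.52 to 0.94. Notch3 correlated with them at 0.62 to 0.97, Pdgfrb at 0.52 to 0.88 and Myh11 at 0.34 to 0.93, but Acta2 at −0.10 to 0.42 and Cspg4 at −0.47 to −0.08. These values describe 4 groups of 3 libraries that share depot and diet, and carry no test. By them Myh11 stood nearer to the pericyte genes than to Acta2 and Cspg4.

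**Figure D4:**
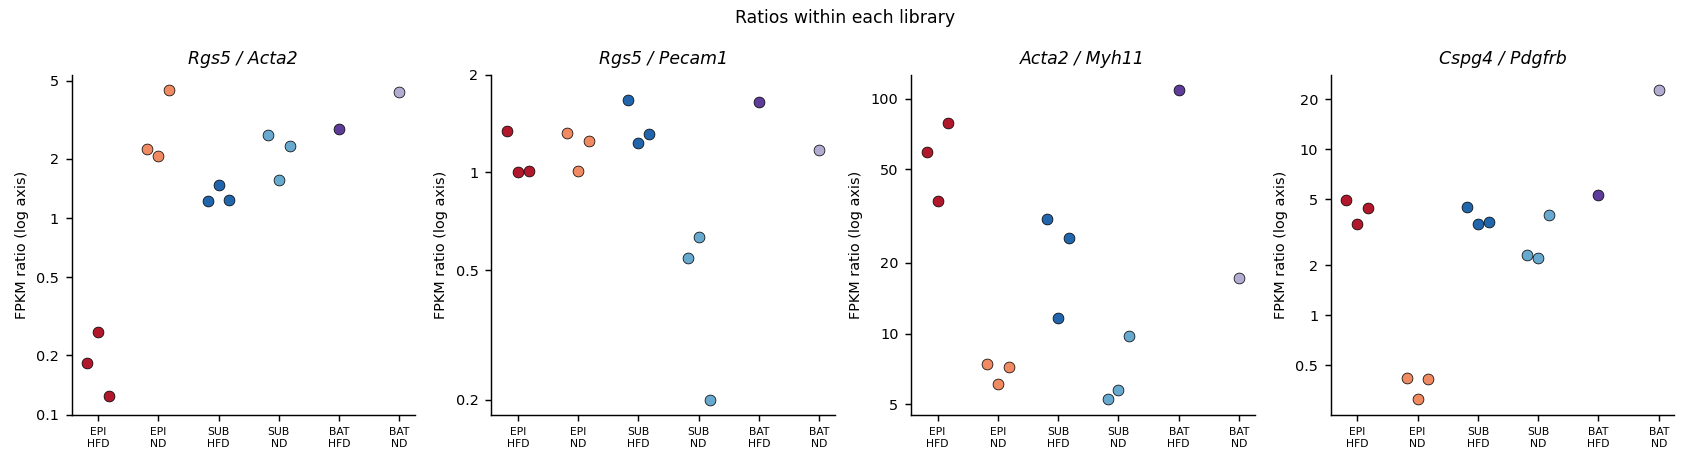
Ratios of FPKM within each library (points, log y axis, own scale per panel) by depot and diet along the x axis: Rgs5 over Acta2, Rgs5 over the endothelial gene Pecam1, Acta2 over Myh11, and Cspg4 over Pdgfrb. Rgs5 over Acta2 is 0.125 to 0.262 in EPI HFD and 1.22 or above in every other library, while Rgs5 over Pecam1 is 1.00 to 1.34 in EPI HFD and 1.01 to 1.32 in EPI ND.

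Smooth muscle contractile genes are classic targets of the factor SRF, which binds the CArG box, and of Notch through RBPJ, which binds TGGGAA. Promoters from RefSeq (GRCm38.p6, the 250 bases before the start that the table gives, 5′ to 3′ on the gene's strand) were available for 6 of the 10 genes: Rgs5, Kcnj8, Abcc9, Cspg4, Notch3 and Acta2. The promoters of Rgs5 and Acta2, the genes of the ratio above, are printed, with motif matches in capitals. The Rgs5 one is chr1:169655251-169655500 on the plus strand and the Acta2 one chr19:34255374-34255623 on the minus strand. The start that the table uses for Acta2 lies inside the RefSeq span of the gene given above, so most of its window lies within that span, while that of Rgs5 lies before the gene.
Rgs5: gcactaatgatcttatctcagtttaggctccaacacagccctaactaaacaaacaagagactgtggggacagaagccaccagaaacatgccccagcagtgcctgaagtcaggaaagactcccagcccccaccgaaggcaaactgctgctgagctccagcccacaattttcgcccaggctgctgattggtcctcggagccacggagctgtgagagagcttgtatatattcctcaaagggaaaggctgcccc
Acta2: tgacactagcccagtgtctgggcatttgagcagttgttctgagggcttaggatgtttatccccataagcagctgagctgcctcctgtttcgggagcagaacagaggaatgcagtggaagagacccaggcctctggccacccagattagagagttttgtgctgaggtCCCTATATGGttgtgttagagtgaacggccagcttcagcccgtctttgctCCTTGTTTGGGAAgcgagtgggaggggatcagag

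None of the 6 promoters held a strict CArG box, which 1.47% of 32851 promoters of that length held. With 1 inner G or C allowed, a search chosen after the strict one found none, Acta2 had 2 matches, at bases −84 to −75 and −34 to −25 before the start in the table, and the other 5 promoters had 0; 8.59% of all promoters had at least 1. TGGGAA, searched on both strands and found in 21.6% of promoters, was in Acta2 at −27 to −22, where it overlaps the second CArG-like match, and in Abcc9 at −221 to −216. Letters in a window are a description and say nothing of binding in these cells.

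Other known mural genes, outside the 10, also lay on both sides. The counts of these and the PDGF and Notch lists stand beside those of all genes tested. Of all genes, 7.35% were lower and 12.2% higher on HFD in epididymal adipocytes, and 10.2% and 9.30% in inguinal ones. The interaction was negative for 2.42% and positive for 4.80%. Of 9 other pericyte genes tested in epididymal adipocytes, 4 were lower on HFD, 1 higher and 4 neither, with a median log2 difference of −0.85. The lower ones were the matrix protein gene Vtn (1.37 against 11.4 FPKM, log2 −2.68, limma adjusted p = 0.00022), Higd1b (−2.50, adjusted p = 0.031) and both subunit genes of the nitric oxide receptor guanylyl cyclase, Gucy1a1 (−2.41) and Gucy1b1 (−2.05; adjusted p = 0.00012 and 0.004). Anpep, an aminopeptidase gene that other cells also use, was higher (65.4 against 8.73 FPKM, 3.01, adjusted p = 0.0015). In inguinal adipocytes 1 of the 9 was higher, the adhesion gene Mcam (214 against 77.5 FPKM, 1.57, adjusted p = 0.0068), and 8 neither, with a median of 0.58. The tenth, the brain pericyte gene Atp13a5, was listed at 0 in every library.

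Of 13 other smooth muscle genes, 9 passed the filter, and Cnn1, Myocd, Pln and Actg2 did not. In epididymal HFD libraries 3 of the 9 were lower, 1 higher and 5 neither (median log2 −0.62). The regulatory myosin light chain gene Myl9 was 5.38 against 23.5 FPKM (−2.04, limma adjusted p = 0.011) and the smoothelin gene Smtn 4.37 against 15.8 FPKM (−1.72, adjusted p = 0.00011). The actin nucleator gene Lmod1 was lower too, at low levels (0.099 against 1.28 FPKM, −1.54, adjusted p = 0.013). Synpo2, an actin-binding protein gene, was higher at 73.9 against 26.7 FPKM (1.47, adjusted p = 0.0055). In inguinal adipocytes 3 of the 9 were higher on HFD, 0 lower and 6 neither (median 0.40): Synpo2 (64.9 against 14.1 FPKM, 2.28, limma adjusted p = 0.00076), the calsequestrin gene Casq2 (1.3 against 0.165 FPKM, 1.38, adjusted p = 0.018) and the myosin light chain kinase gene Mylk (1.05, adjusted p = 0.013). Lmod1 and Casq2 were low enough that the 0.5 FPKM added before taking logs weighs on their differences.

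Genes that act with the 2 receptors, PDGFRB and Notch3, were measured too. Of 5 PDGF genes other than Pdgfrb, 3 were lower in epididymal HFD than ND libraries, 0 higher and 2 neither. The lower ones were Pdgfb, for a ligand of PDGFRB (8.92 against 27.3 FPKM, log2 −1.56, limma adjusted p = 0.00039), Pdgfd (2.71 against 7.14 FPKM, −1.27, adjusted p = 0.0024) and the fibroblast receptor gene Pdgfra (−2.37, adjusted p = 0.0072). In inguinal libraries Pdgfd was higher on HFD (11.6 against 5.62 FPKM, 1.00, adjusted p = 0.011), Pdgfra lower (−1.63, adjusted p = 0.045) and 3 neither. The interaction passed for Pdgfd (−2.28, adjusted p = 0.0041) and Pdgfb (−1.15, adjusted p = 0.043).

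Of 12 Notch pathway genes other than Notch3, 8 were lower in epididymal HFD libraries, 0 higher and 4 neither (median −1.69). The endothelial receptor gene Notch4 was 1.29 against 12.8 FPKM (log2 −2.89, limma adjusted p = 3.2e-06) and the ligand gene Jag2 0.777 against 6.54 FPKM (−2.46, adjusted p = 5.7e-05). In inguinal libraries 2 were lower, Dll1 (−1.12, adjusted p = 0.0068) and Notch2 (−0.97, adjusted p = 0.0049), 0 higher and 10 neither. The interaction was negative for 6 and positive for 1 of the 12, with Notch4 (−2.97, adjusted p = 0.00099) and Heyl, a mural Notch target gene (−2.67, adjusted p = 0.0097), the most negative.

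**Figure D5:**
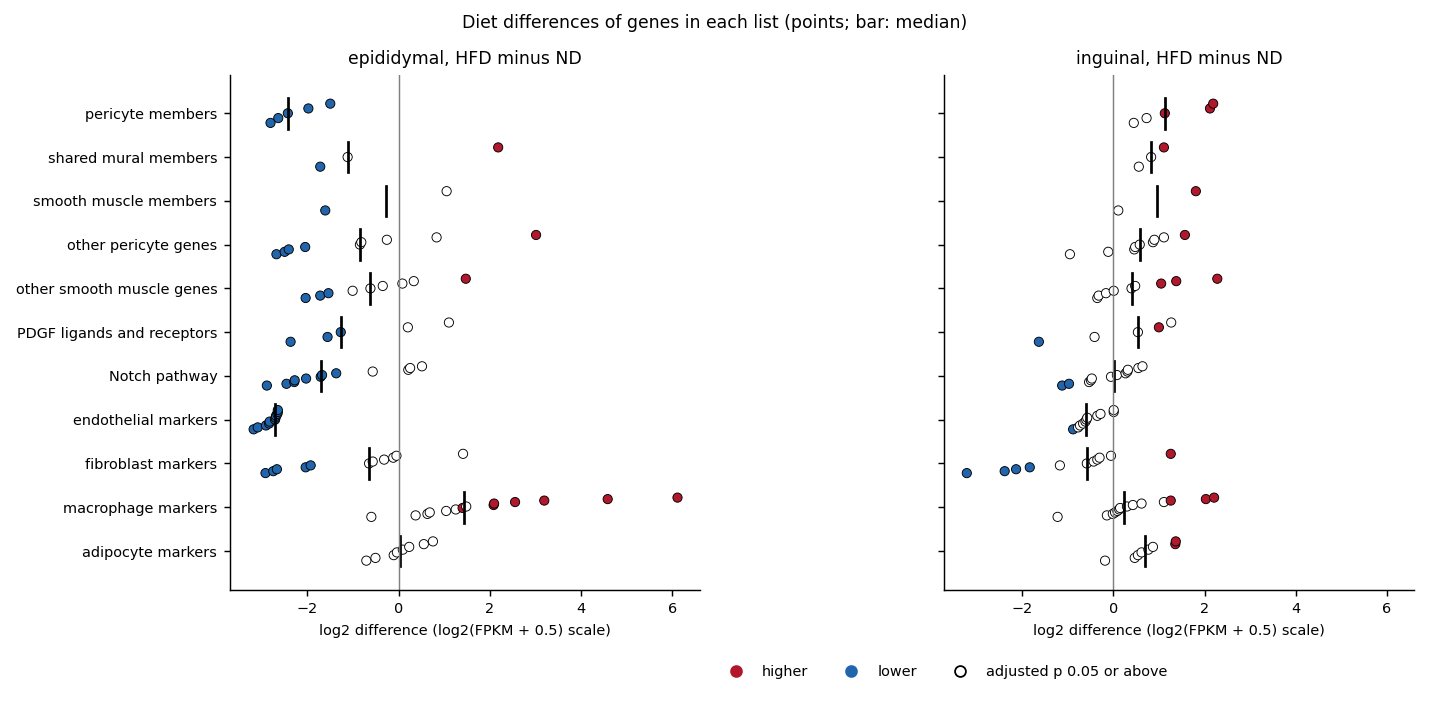
HFD minus ND difference on the log2(FPKM + 0.5) scale (x axis) of each tested gene (points) in the mural lists and in lists of other cells (rows), with the list's median as a bar, for epididymal (left) and inguinal (right) adipocytes; filled points had a limma adjusted p under 0.05. In the left panel the 5 pericyte genes (median −2.43) and the 11 endothelial markers (median −2.71) lie left of 0, and in the right panel the pericyte genes lie right of 0 (median 1.13).

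Markers of some other cells also differed between these groups, and not always in the direction of the mural genes. Beside the counts below, 19.5% of all genes were called in each white diet comparison and 7.22% in the interaction. Between depots the share was 10.6% on HFD and 6.51% on ND. All 11 endothelial markers were lower in epididymal HFD than ND libraries (median log2 −2.71), with a summed level of 56.6 to 112 FPKM against 616 to 672 FPKM and no marker at 0. In inguinal libraries 1 of 11 was lower on HFD and 10 neither (342 to 442 FPKM on HFD, 429 to 806 FPKM on ND, median −0.59), and the brown sums were 515 FPKM on HFD and 154 FPKM on ND. All 11 endothelial markers also had a negative interaction (median −2.21) and were lower in epididymal than inguinal libraries on HFD (11 of 11, median −2.1), while 0 of 11 passed between depots on ND. The part of endothelial cells in the mural results was not tested. Set against the endothelial gene Pecam1, a ratio chosen after its values were seen and carrying no test, Rgs5 was 1.34, 1.00 and 1.01 in epididymal HFD libraries and 1.32, 1.01 and 1.25 in epididymal ND ones. It was 1.67, 1.23 and 1.31 in inguinal HFD libraries and 0.547, 0.634 and 0.200 in inguinal ND ones, and 1.65 and 1.17 in the brown HFD and ND libraries. Per unit of Pecam1, epididymal Rgs5 overlapped between diets, and inguinal Rgs5 did not. Pecam1 is only 1 of the 11 endothelial markers, and ratios to the others were not computed. The inguinal ND libraries with the low ratios also had the high lymphocyte markers, and the part of these in the ratio was not tested.

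Lymphocyte markers were lower in inguinal HFD libraries for 11 of 11 genes (6.82 to 15.7 FPKM summed on HFD, 66.8 to 861 FPKM on ND, with Cd3g and Cd4 at 0 in at least 1 HFD library) and passed for 0 of 11 in epididymal ones. Macrophage markers were higher on HFD for 7 of 14 genes in epididymal libraries (1521 to 2663 FPKM on HFD, 497 to 978 FPKM on ND) and for 3 of 14 in inguinal ones (288 to 474 FPKM on HFD, 210 to 576 FPKM on ND). Of 11 fibroblast markers, 5 were lower and 0 higher in epididymal libraries (438 to 608 FPKM on HFD, 904 to 1548 FPKM on ND), and 4 lower and 1 higher in inguinal ones (982 to 1287 FPKM on HFD, 870 to 2679 FPKM on ND). Mesothelial markers passed for 1 of 7, lower, and 0 of 7, and skeletal muscle markers for 1 and 2 of 5, higher. Adipocyte markers passed for 0 of 8 in epididymal libraries and 2 of 8, higher, in inguinal ones. Of 2 epithelial and myoepithelial markers tested, 1 was higher in epididymal libraries, and 1 higher and 1 lower in inguinal ones. Between depots, 11 of 14 macrophage markers were higher in epididymal than inguinal libraries on HFD and 2 on ND, and 10 of 11 lymphocyte markers were lower on ND. Small counts, such as 3 of 14 inguinal macrophage markers, lie near the 19.5% of all genes called in each diet comparison. They are not read as a difference of those cells. The part of these cells in the mural results was not tested.

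In brown adipocytes there is 1 library per diet, so values are compared without a test. Of 9 mural genes at 0.5 FPKM or more in at least 1 brown library, 8 were at least 2-fold higher on HFD on the log2(FPKM + 0.5) scale and 0 at least 2-fold lower, against 13.3% and 8.22% of 13558 genes. Their log2 ratios were 2.97 for Ndufa4l2, 2.58 for Acta2, 2.15 for Cox4i2, 2.03 for Rgs5, 1.55 for Kcnj8, 1.09 for Pdgfrb, 1.03 for Notch3 and 1.02 for Abcc9, while Cspg4 stood at −0.62. Pdgfrb was 2.51 FPKM on HFD and 0.908 FPKM on ND, Notch3 1.90 and 0.674 FPKM, Kcnj8 3.88 and 1.00 FPKM, and Abcc9 3.03 and 1.24 FPKM. All 5 pericyte genes were thus higher in the brown HFD library, and all 5 were lower in epididymal HFD libraries. Other cell markers differed in the brown pair too: beside the endothelial sums given above, macrophage markers summed to 202 FPKM on HFD and 33.6 FPKM on ND, skeletal muscle markers to 193 and 70.5 FPKM, and adipocyte markers to 15839 and 25854 FPKM. Their part in the mural values was not tested.

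Among 11382 tested genes with a mean of at least 2 FPKM, those most like Rgs5 over the 12 white libraries were Apold1 (Pearson r 0.97), an endothelial early response gene, then Itga1, Spry1 and Sh3bp4 (0.95 each) and Dapk2 (0.94). Those most like Acta2 were Otud6b, Itgb1 and Ccdc149 (0.95 each), Nid1 and Mxra8 (0.94 each), of which Itgb1 and Nid1 encode an integrin and a basement membrane protein. The genes nearest to Myh11 and Cspg4 were looked up after their values were seen. For Myh11 they were Myl9 and Smoc2 (0.95 each), then Lama2, Agtr1a and the pericyte gene Abcc9 (0.93 each). For Cspg4 they were Kcnk3 (0.96), Gpd1, Slc36a1 and Slc36a2 (0.95 each) and Otop1 (0.94). Among these, Myl9 is a contractile gene, whereas Gpd1 encodes a glycerol phosphate dehydrogenase that is abundant in adipocytes.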

How the data were processed

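The deposited values were made by the authors with TopHat2 2.0.9, Cuffdiff 2.1.1 and the mouse build mm10, per the submitters' processing notes. The file headers name no unit, and the deposited values were taken as FPKM from these tools and the values themselves; the sources used here give no annotation, strand setting, normalization or rule for shared reads. Depth is therefore unknown, precision rests on the spread of replicates, and a gene listed at 0 may be a failed estimate. A symbol was matched to 36638 of 38553 identifiers. Between 15399 and 18029 genes lay above 0 per library.

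The members and lists were chosen with earlier results of these data known. limma 3.58.1 in R 4.3.3 (trend) was fitted to log2(FPKM + 0.5) of the 12 white libraries as 4 group means (8 residual degrees of freedom), over 14959 genes. A two-sided Benjamini-Hochberg adjusted p under 0.05 over all of these was a call. This scale understates changes of low genes. Ratios used an exact permutation test in scipy 1.17.1.

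All 10 mural genes were named. Called genes of the other mural, PDGF, Notch and related-gene lists were named by the same rule. They were among the 2 called genes with the largest difference, in either direction, in any of the 5 contrasts. Markers of other cells were given by counts and summed levels. The genes most like Rgs5 and Acta2 were named too. Lmod1, Actb, the Rgs5 to Pecam1 ratio and the genes most like Myh11 and Cspg4 were chosen after their values were seen.

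The labels do not say what a replicate number marks, and the main fit has no block. Same-numbered libraries deviated together only weakly on HFD between depots (r of 0.184, 0.111 and 0.146). Epididymal HFD and ND libraries, from mice on different diets, gave similar values (0.18, 0.0825 and 0.162). In each comparison other than HFD between depots, 1 or more correlations were under 0.1. These values do not settle whether the numbers pair libraries. Alternatives changed the pseudocount (0.1 or 1), the filter (none or 2 FPKM), the scaling (TMM or quantile), the libraries fitted (only those compared, or 1 left out), the weighting (array weights) and the pairing (replicate block). Leaving out inguinal ND replicates 0 and 2 together was chosen because earlier results of these data showed high lymphocyte markers there; for the ratio and index it was added after seeing the data. Proteins and 4 of the promoters are not used here.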

Additional observations from a re-analysis of the deposited data

Results flagged for a closer look

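The diet difference of 6 mural genes differed between the white depots by the limma interaction test, epididymal minus inguinal on the log2(FPKM + 0.5) scale. The differences were −3.94 for Rgs5, −4.18 for Ndufa4l2, −3.61 for Cox4i2, −3.37 for Kcnj8, −2.88 for Abcc9 and −2.55 for Notch3. For Rgs5, Ndufa4l2 and Cox4i2 the 3 HFD libraries lay below all ND ones in epididymal adipocytes and above all of them in inguinal adipocytes. For Kcnj8, Abcc9 and Notch3 the inguinal diet groups overlapped.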

How the results depend on the processing

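Over all settings, Rgs5, Kcnj8, Abcc9, Cspg4 and Notch3 kept their epididymal diet call in 22 of 22. Ndufa4l2 kept it in 15, Cox4i2 in 17 and Myh11 in 14 of 22. Beside libraries left out, Ndufa4l2 lost it with pseudocount 0.1 or no filter, and Cox4i2 with only the groups compared. Myh11 lost it with no filter or quantile normalization. Rgs5, Ndufa4l2, Cox4i2 and Kcnj8 kept their interaction call in 21 of 21, Notch3 in 18 and Abcc9 in 14. In the inguinal comparison Cox4i2 kept its call in 22 of 22, Acta2 in 21, Rgs5 in 20, Ndufa4l2 in 17 and Cspg4 in 9. The inguinal count of 5 called genes was 3 with no filter, 2 with only the groups compared and 1 without inguinal ND replicates 0 and 2. The count of 4 between depots was 1 with no filter on HFD, and on ND 2 with no filter, 0 with only the groups compared and 9 with array weights. Leaving out 1 library gave 5 to 10 called genes in epididymal adipocytes, 3 to 7 in inguinal ones, 4 to 8 in the interaction, 1 to 6 between depots on HFD and 1 to 9 on ND. The log2 difference of Rgs5 over Acta2 then ran from −4.12 to −3.51, −0.89 to −0.53, −3.06 to −2.53 (HFD depots) and 0.03 to 0.58 (ND depots). Without inguinal ND replicates 0 and 2, the inguinal index difference was 0.63 in place of 0.36. With the replicate number as a block, the counts were 8, 5, 6, 5 and 5, the last 2 adding Abcc9 on HFD and Cspg4 on ND (adjusted p = 0.042), and no other call changed. Signs turned in differences that were called in neither setting: without inguinal ND replicate 2, inguinal Abcc9 was −0.19, Pdgfrb −0.05 and Myh11 −0.44; without ND replicates 0 and 2 they were −0.41, −0.61 and −0.70, with an Acta2 interaction of 0.01; and without HFD replicate 1 Myh11 was −0.20. Over single libraries left out, these 3 reached 0.88, 1.15 and 0.52, and Pdgfrb passed at 1.15, without inguinal ND replicate 1. Counts over all genes (2918, 2914, 1080, 1587 and 974 in the order above) became 5110, 4612, 2836, 3681 and 2098 with array weights; only the groups compared gave 713 in inguinal adipocytes and 2993 and 14 between depots on HFD and ND; no filter gave 695 in the interaction and 577 between depots on ND; without inguinal ND replicates 0 and 2 they were 999 (inguinal), 2599 and 562 (depots on HFD and ND). Leaving out 1 library gave 1819 to 3665, 1642 to 4727, 433 to 2627, 783 to 2151 and 264 to 3092. The cause of these changes was not tested. Fits with libraries left out or only the groups compared hold fewer libraries, while those with array weights or no filter hold all 12. Depth is unknown and limits what can be said of Myh11 in brown fat.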
